A study of Sus scrofa with 6 samples.

Results

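Genes of glycolysis and of the citrate cycle were followed in single pig embryos after knockdown of *CARM1*, which encodes an arginine methyltransferase of histones. The members are all gene rows of the deposited table whose KEGG annotation holds pathway code 00010 (glycolysis and gluconeogenesis) or 00020 (citrate cycle), 85 of 24358 genes. Glycolysis and gluconeogenesis held 62 of them and the citrate cycle 30, with 7 genes in both. RNA sequencing was done on 6 whole embryos at day 5, which the labels call porcine blastocysts: 3 non-injected control embryos and 3 embryos grown from oocytes injected with *CARM1* siRNA, about 10 pl at 50 μM (*CARM1* KD). Because the control embryos were not injected, the injection and the siRNA cannot be told apart in this comparison. Whether these embryos were fertilized or activated without sperm is not stated for this experiment. Since 1 library is 1 embryo, replicate error here is the variation from embryo to embryo.

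Glycolysis turns glucose into pyruvate in the cytoplasm. Lactate dehydrogenase then interconverts pyruvate and lactate, while the pyruvate dehydrogenase complex feeds pyruvate into the citrate cycle of the mitochondria, which yields reduced cofactors for respiration. Cleaving embryos of mice and other mammals rely mainly on pyruvate and lactate, and their use of glucose rises toward the blastocyst stage. Lactate dehydrogenase is a tetramer of A and B subunits, encoded by *LDHA* and *LDHB*, and in the mouse the B subunit predominates in the oocyte and early embryo.

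The deposited values are FPKM (fragments per kilobase of transcript and library size) and estimated counts. Values of a group are given in the order of its embryos 1, 2 and 3. Library totals ranged from 26341924 to 41727594 counts. *CARM1* itself was lower in every *CARM1* KD embryo (0.130 to 0.274 FPKM) than in any control embryo (1.26 to 4.54 FPKM). In the fit used below, its log2 fold change was -3.98 (standard error 1.02, unadjusted p = 0.00516, adjusted p = 0.9999, edgeR's quasi-likelihood test). Control 2 stood apart from the other embryos: mitochondrially encoded genes took 46.0% of its counts, against 14.5 to 23.9% in the other 5. Control 2 also held the highest summed level of 11 listed oocyte genes (3020.3 FPKM, with *CARM1* KD 3 next at 1460.2 FPKM and the other 4 embryos at 27.6 to 548 FPKM), and none of those genes was at 0 in all embryos. The summed level of 7 trophectoderm genes, which mark the outer layer of the blastocyst, was lowest in the same pair, at 4.999 FPKM (control 2) and 49.6 FPKM (*CARM1* KD 3) against 98.6 to 348 FPKM in the other 4. Keratins carried much of this sum: *KRT18* had a count of 0 in control 2 and *CARM1* KD 3 and 30.3 to 165 FPKM in the other 4. The transcription factors of the list differed, with *TEAD4* highest in *CARM1* KD 3 (14.5 FPKM) and lowest in control 2 (3.38 FPKM), and *TFAP2C* at 35.1 FPKM in *CARM1* KD 3 and 0.586 FPKM in control 2, against 27.9 to 50.1 FPKM elsewhere. *CDX2*, a defining factor of trophectoderm, was at most 0.445 FPKM, in control 2, and at 0 in 4 embryos. Inner cell mass genes summed to 0.771 to 20.5 FPKM over the 2 listed genes analysed. A list of blood cell genes summed to 1.06 FPKM in control 2 and to 45.6 to 137 FPKM elsewhere, nearly all of it from *CD74* and *AIF1*. Lists for cumulus and granulosa cells and for sperm summed to at most 0.202 and 0.449 FPKM. The part of these differences in the values below was not tested, but each main result is given with and without control 2. In such bulk samples, fewer cells of a type and less RNA per cell cannot be told apart.

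No gene of either pathway was called as different between *CARM1* KD and control embryos by any test used in the main comparison. Of the 85 members, 59 reached 1 FPKM in 2 or more embryos and were tested, 38 in glycolysis and gluconeogenesis and 27 in the citrate cycle, with 6 in both. Among the glycolysis genes, 19 had higher and 19 lower fitted values in *CARM1* KD embryos, and their median log2 fold change was -9.57e-05 and their range -1.39 to 1.74. In the citrate cycle, 17 were higher and 10 lower, with a median of 0.32 and values up to 1.37. Over all 10639 genes tested, 5886 were higher and 4753 lower, with a median of 0.10. With edgeR's quasi-likelihood test and Benjamini-Hochberg adjustment, 0 of 59 members passed an adjusted p under 0.05, where 0.0% of all genes did, and 0 passed an unadjusted p under 0.05, where 0.686% of all genes did (0.338% higher and 0.348% lower in *CARM1* KD embryos). DESeq2 called 0 members at an adjusted p (0.113% of all genes) and 0 at an unadjusted p (1.81%). The 2 groups of embryos overlapped for all 59 members, whereas 4.89% of all genes tested had groups that did not overlap (3.82% with *CARM1* KD above and 1.07% below). The smallest unadjusted p of a member was 0.186, for *SDHC* (log2 fold change 1.28, standard error 0.88, edgeR's quasi-likelihood test, adjusted p = 0.9999). Standard errors had a median of 1.16 for glycolysis genes and 1.02 for citrate cycle genes on the log2 scale. A 2-fold difference was thus about 1 standard error for a typical member, and larger differences could also go uncalled. *CARM1* itself, at a log2 fold change of -3.98, did not pass an adjusted p under 0.05 with edgeR. The 0 calls therefore do not show that levels were equal. Without control 2 the medians were -0.07 and -0.16, and without both control 2 and *CARM1* KD 3 they were 0.15 and 0.10, with 0 members at an adjusted p under 0.05 in either fit.

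**Figure D1:**
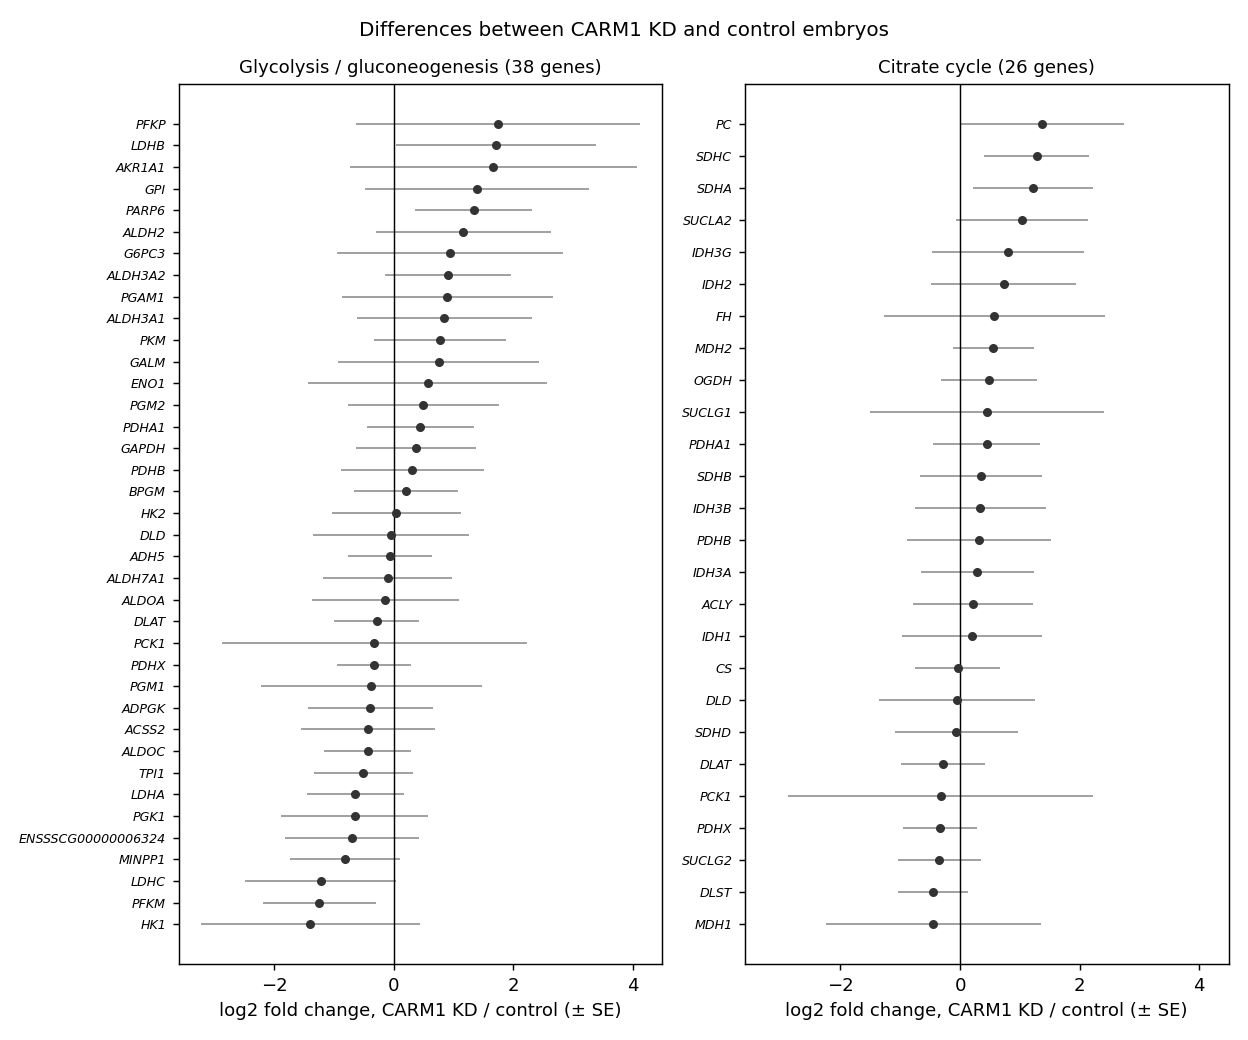
Log2 fold change of *CARM1* KD over control embryos for each gene drawn (points) with its standard error (bars), from edgeR on 3 embryos against 3. The left panel holds 38 genes of glycolysis and gluconeogenesis, from -1.39 to 1.74, and the right panel 26 genes of the citrate cycle, from -0.45 to 1.37.

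The 85 genes spanned a wide range of transcript levels. To compare levels between genes or enzyme steps, the FPKM of all transcripts of a gene was summed, because the deposited gene value lay below that sum for genes with several transcripts. The log2 ratios of *LDHA* to *LDHB* below use the deposited gene value unless stated. By the median over 6 embryos, succinate dehydrogenase had the highest summed level among the enzymes made of coded rows alone (576 FPKM), followed by the pyruvate dehydrogenase complex (212 FPKM), the isocitrate dehydrogenases (204 FPKM) and enolase (139 FPKM). These sums add every gene row of a step, so enzymes of several subunits are raised over enzymes of 1 gene. Within succinate dehydrogenase, mean summed levels over the embryos ran from 271 FPKM for *SDHB* to 17.1 FPKM for *SDHC*. Phosphofructokinase, which commits sugar phosphate to glycolysis, was lowest (2.88 FPKM), below phosphoglucose isomerase (3.06 FPKM), pyruvate kinase (16.5 FPKM) and the hexokinases (18.2 FPKM). The ranges over embryos of phosphofructokinase (1.74 to 4.07 FPKM) and phosphoglucose isomerase (0 to 7.13 FPKM) overlapped, so their order is not separated from the spread. These 4 were the lowest steps between glucose and pyruvate.

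**Figure D2:**
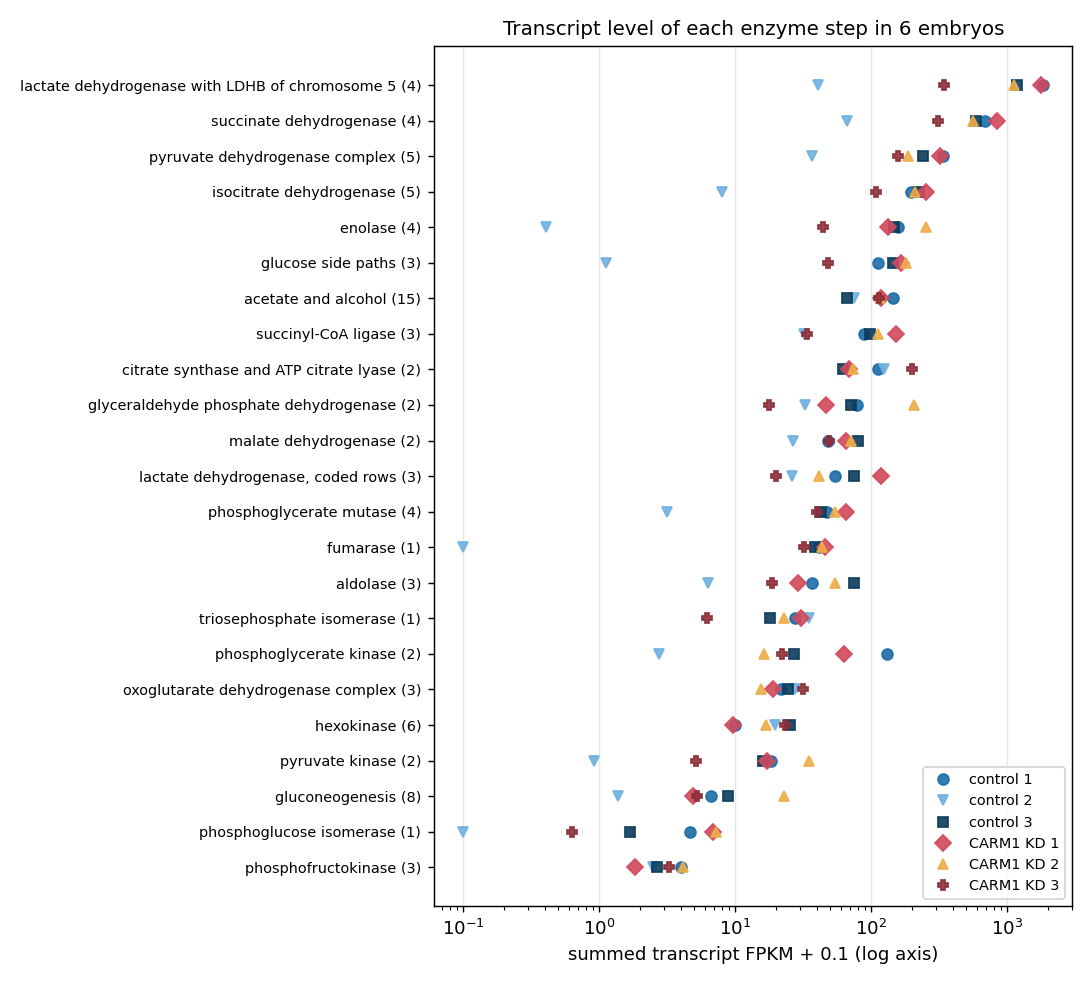
Summed transcript FPKM plus 0.1 (log axis) of the coded genes at each enzyme step drawn (the row named *PARP6* is left out), with the number of gene rows in brackets and 1 symbol per embryo. Lactate dehydrogenase is drawn with and without the *LDHB* row of chromosome 5, which carries no pathway code. The steps drawn run from a median of 1152 FPKM at the top to 2.88 FPKM for phosphofructokinase, and control 2 lies far to the left at many of them.

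Lactate dehydrogenase B appeared in the table as 2 rows, and only the minor row carried the glycolysis code. The coded row (ENSSSCG00000032557) lies on chromosome 2 from 12988754 to 12990030 and consists of a single transcript of 1124 nucleotides in 2 exons. The row without a pathway code (ENSSSCG00000000576) lies on chromosome 5 from 51810967 to 51831490, and its main transcript has 8 exons and 1607 nucleotides. This row had 1790.0, 14.7 and 1103 FPKM across controls 1 to 3, against 1655, 1085 and 323 FPKM across *CARM1* KD 1 to 3. It ranked 62 of 24321 nuclear genes by mean summed transcript FPKM, above every member. The coded row had 19.1, 0.195 and 12.8 FPKM without injection, against 89.9, 10.1 and 2.42 FPKM after *CARM1* KD. Control 2 was lowest on both rows, and the groups overlapped on both.

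The coded *LDHB* row took 0.741% (95% Wilson interval 0.695 to 0.79%) of the counts of both rows in control 1, 0.958% (0.465 to 1.96%) in control 2 and 0.805% (0.73 to 0.888%) in control 3. In *CARM1* KD 2 and 3 it took 0.647% (0.589 to 0.709%) and 0.523% (0.436 to 0.627%). *CARM1* KD 1 stood apart at 3.66% (3.55 to 3.77%), which rests on 4189 counts of the coded row. These intervals cover counting error only, since reads copied by PCR are not independent molecules. Reads can be shared between near-identical copies, and the sources used here do not give how the counting assigned them, so the level of the coded row is uncertain.

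*LDHA*, whose product favours the formation of lactate, had 20.6, 10.04 and 43.8 FPKM across controls 1 to 3, against 19.1, 21.0 and 9.11 FPKM across *CARM1* KD 1 to 3. Its log2 fold change was -0.64 (standard error 0.81), and the groups overlapped. The log2 ratio of *LDHA* to the coded *LDHB* row was 0.11, 5.69 and 1.78 in the control embryos (mean 2.52 ± 2.86, SD, n = 3), against -2.23, 1.06 and 1.91 after *CARM1* KD (mean 0.246 ± 2.19, SD, n = 3). The control 2 value of this ratio rests on only 7 counts of the coded row, against 116 to 4189 counts in the other embryos. Highest in control 2 and lowest in *CARM1* KD 1, this ratio differed by -2.28 between the groups (exact permutation test, 2-sided, p = 0.5, n = 3 each), less than the SD of the control embryos. With 3 embryos against 3 this test cannot give a p below 0.1. Without control 2 the difference was -0.70, and without *CARM1* KD 1 it was -1.04. With summed transcript FPKM the ratios were 0.735, 6.18 and 2.26 in the control embryos. After *CARM1* KD they were -1.74, 1.54 and 2.41, and the groups differed by -2.33.

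Against the *LDHB* row of chromosome 5, a comparison added after the data were seen, the log2 ratio was -6.44, -0.55 and -4.65 in the control embryos (mean -3.88 ± 3.02, SD, n = 3), against -6.43, -5.69 and -5.15 after *CARM1* KD (mean -5.76 ± 0.645, SD, n = 3). By FPKM, *LDHB* exceeded *LDHA* in all 6 embryos, and least so in control 2, where the order turned with the level used: by counts without a length term, *LDHA* (910 counts) exceeded *LDHB* (724 counts) there. The difference between the groups was -1.88 (exact permutation test, 2-sided, p = 0.5, n = 3 each) and -0.21 without control 2. With summed levels in place of the deposited gene value it was -1.92. By summed transcript FPKM, the chromosome 5 row was 56.4, 18.0, 61.7, 36.9 and 25.2 times *LDHA* in control 1, control 3 and *CARM1* KD 1, 2 and 3, and 1.04 times in control 2. It made up 93.3 to 97.1% of the summed level of all lactate dehydrogenase rows in those 5 embryos and 36.2% in control 2.

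*LDHC*, known in mammals as the testis form of lactate dehydrogenase, had 2.81, 11.6 and 0.979 FPKM across controls 1 to 3, against 1.30, 1.83 and 4.79 FPKM across *CARM1* KD 1 to 3. It was highest in control 2 and next highest in *CARM1* KD 3, the embryos with the most oocyte RNA. *LDHC* lies next to *LDHA* on chromosome 2, from 40748863 to 40809692, with *LDHA* from 40813963 to 40826715. It made up 28.5% of the summed lactate dehydrogenase level in control 2 and at most 1.39% in the other 5 embryos. Its log2 fold change was -1.22 (standard error 1.26).

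**Figure D3:**
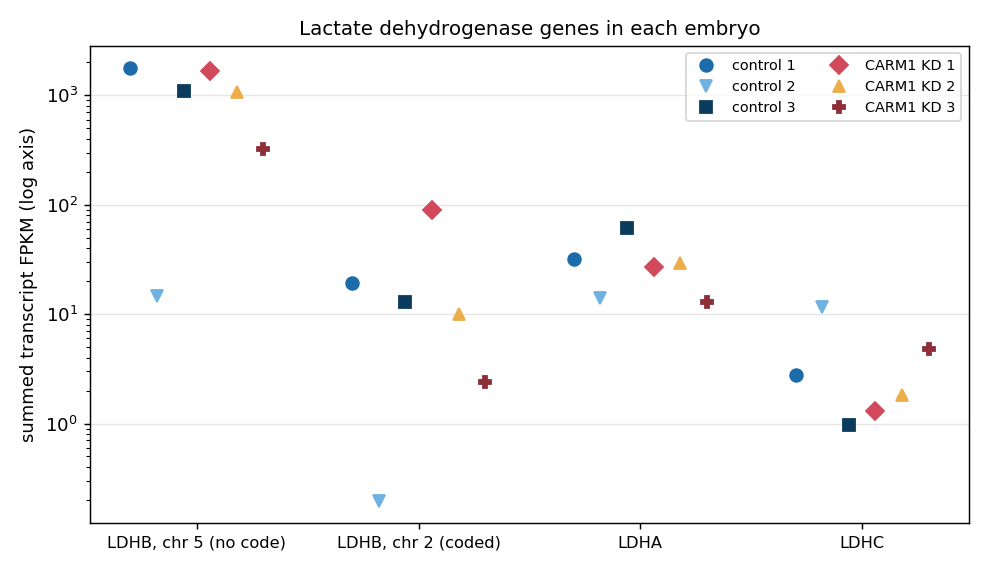
Summed transcript FPKM (log axis) of the 4 lactate dehydrogenase rows, with 1 symbol per embryo. *LDHB* of chromosome 5 lies at 323 to 1794 FPKM in 5 embryos and at 14.7 FPKM in control 2, while *LDHC* is highest in control 2 at 11.6 FPKM.

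At the entry of glucose, *HK2*, an inducible hexokinase that binds mitochondria, had 6.02, 0.498 and 13.3 FPKM across controls 1 to 3, against 4.15, 10.1 and 7.67 FPKM across *CARM1* KD 1 to 3. *HK1*, the hexokinase of most tissues, had 1.501, 0 and 3.29 FPKM without injection, against 0.607, 0.738 and 0.592 FPKM after *CARM1* KD. Both were lowest in control 2, and neither separated the groups. The *HK1* groups overlapped only through control 2, as controls 1 and 3 lay above every *CARM1* KD embryo. *ADPGK*, which phosphorylates glucose with ADP, was instead highest in control 2, at 1.89, 18.4 and 3.24 FPKM without injection, against 3.55, 5.27 and 13.2 FPKM after *CARM1* KD. Its highest values were in control 2 and *CARM1* KD 3, so that the sum of hexokinases and *ADPGK* ranged only from 9.50 to 25.2 FPKM over the 6 embryos. The log2 fold changes were 0.05 (standard error 1.08) for *HK2*, -1.39 (1.83) for *HK1* and -0.39 (1.04) for *ADPGK*. That of *HK1* was -0.16 without control 3. Without control 2 it was -1.99 (unadjusted p = 0.0919, edgeR's quasi-likelihood test).

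*GPI*, which isomerizes glucose 6-phosphate, had 4.49, 0 and 1.27 FPKM across controls 1 to 3, against 6.59, 6.80 and 0.530 FPKM across *CARM1* KD 1 to 3. Of the phosphofructokinases, *PFKM* (the muscle form) had 1.24, 1.40 and 0.897 FPKM without injection, against 0.333, 0.475 and 0.898 FPKM after *CARM1* KD. The *PFKM* groups overlapped only where *CARM1* KD 3 lay just above control 3, and the log2 fold change was -1.24 (standard error 0.95, unadjusted p = 0.231, edgeR's quasi-likelihood test). DESeq2 gave an unadjusted p of 0.0585 for *PFKM*. *PFKP*, the platelet form, had 0.473, 0 and 0.381 FPKM without injection, against 0, 1.92 and 1.003 FPKM after *CARM1* KD. Its log2 fold change of 1.74 had a standard error of 2.38 and was 0.37 without *CARM1* KD 2 and 1.12 without control 2. By the deposited gene value, *PFKL*, the liver form, stayed under the filter at 0.486 to 1.16 FPKM. The summed transcript level of *PFKL*, which the filter did not use, was 0.655 to 1.56 FPKM.

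*ALDOA*, the main aldolase of most tissues, had 13.1, 0.490 and 24.4 FPKM across controls 1 to 3, against 10.2, 19.1 and 5.11 FPKM across *CARM1* KD 1 to 3. *TPI1*, which interconverts the triose phosphates, had 25.4, 32.0 and 16.6 FPKM without injection, against 26.4, 20.8 and 4.89 FPKM after *CARM1* KD. *TPI1* was thus among the tested members highest in control 2, as were *LDHC*, *ADPGK*, *PFKM* and the aldehyde dehydrogenase row ENSSSCG00000006324. *GAPDH*, a common reference gene, had 17.7, 11.6 and 17.3 FPKM without injection, against 10.6, 43.2 and 3.60 FPKM after *CARM1* KD. *CARM1* KD 2 lay above and *CARM1* KD 1 and 3 below all control embryos, and its log2 fold change was 0.38 (standard error 1.01).

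Further down the pathway, *PGK1*, an X-linked gene whose product makes ATP, had 131, 2.64 and 26.9 FPKM across controls 1 to 3, against 62.9, 16.1 and 21.9 FPKM across *CARM1* KD 1 to 3. *PGAM1*, a phosphoglycerate mutase, had 37.6, 0 and 33.5 FPKM without injection, against 55.7, 45.9 and 33.7 FPKM after *CARM1* KD. *ENO1*, the main enolase of most cells, had 139, 0 and 129.9 FPKM without injection, against 116, 225 and 39.1 FPKM after *CARM1* KD. No read was assigned to *PGAM1* or *ENO1* in control 2, which allows up to 3 counts, whereas their counts in the other 5 embryos were at least 2027 and 4113. Without control 2, the log2 fold change of *ENO1* was -0.05 in place of 0.57. Controls 1 and 3 spanned 33.5 to 37.6 FPKM for *PGAM1*, and the lowest *CARM1* KD value lay inside that span.

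*PKM*, the pyruvate kinase of most tissues outside the liver, lies on chromosome 7 from 60971835 to 61033954. It had 5.63, 0.341 and 5.002 FPKM across controls 1 to 3, against 5.28, 10.6 and 2.24 FPKM across *CARM1* KD 1 to 3 by the deposited gene value, with a log2 fold change of 0.78 (standard error 1.104). Its transcripts differed between embryos. ENSSSCT00000002159, of 11 exons, held 98.8% of *PKM* counts in control 1 (95% Wilson interval 98.3 to 99.2%), 96.2% (95.0 to 97.2%) in control 3, 95.1% (94.0 to 96.0%) in *CARM1* KD 1 and 99.9% (99.71 to 99.96%) in *CARM1* KD 2. In control 2 it held 12.2% (6.96 to 20.6%) of 90 counts, and in *CARM1* KD 3 12.2% (10.1 to 14.7%) of 802 counts. In those 2 embryos the counts went mainly to ENSSSCT00000036733, with 77.8% (68.2 to 85.1%) in control 2 and 45.3% (41.8 to 48.7%) in *CARM1* KD 3, and to ENSSSCT00000061690, with 10% (5.35 to 17.9%) and 38.2% (34.9 to 41.6%). ENSSSCT00000036733 also has 11 exons, whereas ENSSSCT00000061690, of 33 exons, spans both *PKM* and the next row.

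That next row (ENSSSCG00000001929, 60971884 to 60999864 on chromosome 7) is named *PARP6*, after a poly(ADP-ribose) polymerase, but its description and pathway code are those of pyruvate kinase. Of the *PKM* transcripts with counts, only the 33-exon ENSSSCT00000061690 overlaps it, so reads of that transcript and of this row cannot be separated with certainty. ENSSSCT00000061690 held 14, 9 and 0 counts across controls 1 to 3, against 79, 4 and 306 counts across *CARM1* KD 1 to 3. The *PKM* transcript ENSSSCT00000002159 lies from 61007089 to 61032773, outside this row. The row named *PARP6* had 1.27, 1.47 and 1.13 FPKM without injection, against 1.40, 5.59 and 3.28 FPKM after *CARM1* KD. Its log2 fold change was 1.34 (standard error 0.97), and it was 0.53 without *CARM1* KD 2. *CARM1* KD 1 lay within the control range.

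**Figure D4:**
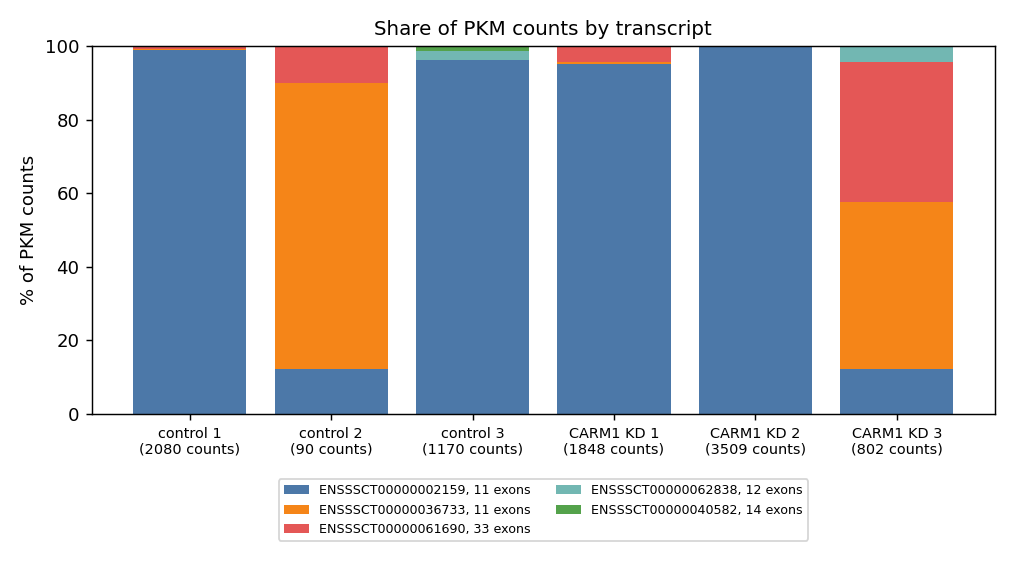
Percentage of *PKM* counts assigned to each annotated transcript in the 6 embryos, with the total *PKM* count under each bar. ENSSSCT00000002159, of 11 exons, holds 95.1 to 99.9% in 4 embryos and 12.2% in control 2 and *CARM1* KD 3. ENSSSCT00000036733, which also has 11 exons, holds 77.8% in control 2 and 45.3% in *CARM1* KD 3.

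The pyruvate dehydrogenase complex links the pathways and carries both codes. *DLD*, the dihydrolipoamide dehydrogenase shared by this complex and the oxoglutarate dehydrogenase complex, had 151, 1.71 and 102 FPKM across controls 1 to 3, against 139, 69.7 and 34.0 FPKM across *CARM1* KD 1 to 3. Its log2 fold change was -0.05 (standard error 1.31). The other tested subunits, named after their values were seen, had the same embryo as their lowest in the case of *PDHA1* (9.62 FPKM in control 2, 46.0 to 95.6 FPKM elsewhere), *PDHB* (0.884 against 16.4 to 51.1 FPKM) and *DLAT* (2.94 against 7.29 to 12.6 FPKM). *PDHX*, which anchors *DLD* in the complex, differed: control 2 (21.2 FPKM) and *CARM1* KD 2 (20.5 FPKM) were both low, with 35.6 to 42.3 FPKM elsewhere.

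The enzyme at the start of the citrate cycle was not low in control 2. *CS*, citrate synthase, had 97.9, 112 and 46.3 FPKM across controls 1 to 3, against 59.3, 58.8 and 174 FPKM across *CARM1* KD 1 to 3. Control 2 and *CARM1* KD 3 held its highest values, and its log2 fold change was -0.04 (standard error 0.72).

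The isocitrate dehydrogenases were low in control 2. *IDH1*, the cytoplasmic form that uses NADP, had 53.8, 2.86 and 75.3 FPKM across controls 1 to 3, against 99.7, 34.5 and 20.6 FPKM across *CARM1* KD 1 to 3. Subunits of the mitochondrial enzyme that uses NAD, named after their values were seen, were also lowest in control 2, with *IDH3A* at 2.54 FPKM there and 21.0 to 38.7 FPKM elsewhere and *IDH3G* at 0.270 FPKM and 19.3 to 40.9 FPKM. The next step showed no such difference: *DLST*, the succinyltransferase of the oxoglutarate dehydrogenase complex, had 19.7, 22.9 and 22.1 FPKM in the control embryos (mean 21.6 ± 1.63, SD, n = 3) and 16.996, 10.9 and 26.7 FPKM in the *CARM1* KD embryos (mean 18.2 ± 7.97, SD, n = 3). Its standard error of 0.59 was the smallest of the citrate cycle genes, beside a log2 fold change of -0.44.

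*SUCLG1*, the alpha subunit of both succinyl-CoA ligases, had 26.4, 0 and 40.5 FPKM across controls 1 to 3, against 33.6, 51.3 and 2.59 FPKM across *CARM1* KD 1 to 3. *SUCLA2*, the beta subunit that gives ATP and a gene named after its values were seen, was highest in *CARM1* KD 1 at 71.2 FPKM, with 4.71 to 21.7 FPKM in the other 5 embryos. *CARM1* KD 1 was also the highest embryo for the coded *LDHB* row.

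Succinate dehydrogenase, which oxidizes succinate and passes electrons to ubiquinone, was uneven among its subunits. *SDHB*, the iron-sulfur subunit, was the most abundant member, with 359.8, 30.1 and 317 FPKM across controls 1 to 3, against 453, 271 and 194 FPKM across *CARM1* KD 1 to 3. The other subunits were named after their values were seen. *SDHD*, a membrane anchor, had 28.0 to 315 FPKM, and the flavin subunit *SDHA* had 4.67 to 128 FPKM. The second anchor, *SDHC*, had 8.11, 3.86 and 15.8 FPKM without injection, against 17.1, 39.6 and 11.2 FPKM after *CARM1* KD. All 4 subunits were lowest in control 2. *SDHA* and *SDHC* were highest in *CARM1* KD 2, and *SDHB* and *SDHD* in *CARM1* KD 1, so the subunits did not share 1 order across embryos. The log2 fold changes were 0.35 (standard error 1.02) for *SDHB*, -0.06 (1.03) for *SDHD*, 1.22 (1.002) for *SDHA* and 1.28 (0.88) for *SDHC*.

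*FH*, fumarase, had 38.2, 0 and 35.7 FPKM across controls 1 to 3, against 42.6, 40.2 and 30.0 FPKM across *CARM1* KD 1 to 3. No read of *FH* was assigned in control 2, which allows up to 3 counts, against 5047 to 8996 counts elsewhere. Leaving control 2 out turned its log2 fold change from 0.57 to -0.03. *MDH2*, the mitochondrial malate dehydrogenase, was even across the control embryos at 25.3, 26.5 and 33.1 FPKM (mean 28.3 ± 4.17, SD, n = 3) and had 32.5, 64.4 and 32.8 FPKM in the *CARM1* KD embryos (mean 43.3 ± 18.3, SD, n = 3). Its log2 fold change was 0.56 (standard error 0.68).

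Control 2 was the single lowest embryo for 20 of 38 tested glycolysis genes (52.6%) and 19 of 27 tested citrate cycle genes (70.4%), against 42.1% of all genes tested. It lay at least 5-fold below the lowest of the other 5 embryos for 42.1% and 51.9% of the tested members, against 23.2% of all genes. Of the 59 tested members, 11 had a count of 0 in control 2, a share similar to the 1947 of all 10639 genes tested. For 8 of the 11 (*ENO1*, *PGAM1*, *GPI*, *HK1*, *PGM1*, *FH*, *SUCLG1* and *MDH1*) no other embryo was at 0. The matching count over all genes is not given here. Control 2 and *CARM1* KD 3 were both below the other 4 embryos for 31.6% of glycolysis and 37.0% of citrate cycle genes (19.8% of all genes), and both above them for 10.5% and 11.1% (24.1% of all genes). Summed over the members of each pathway, glycolysis genes took 0.415%, 0.131% and 0.35% of nuclear counts across controls 1 to 3, against 0.393%, 0.448% and 0.219% across *CARM1* KD 1 to 3. Citrate cycle genes took 0.562%, 0.214% and 0.48% without injection, against 0.583%, 0.546% and 0.412% after *CARM1* KD. Mitochondrially encoded genes are left out of the denominator, and control 2 was lowest for both pathways. The shares above are descriptions, and members of a pathway are not replicates of an embryo.

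The remaining members sit at the borders of the pathways. *PC*, pyruvate carboxylase, which refills the citrate cycle with oxaloacetate, had 3.24, 0.0761 and 4.23 FPKM across controls 1 to 3, against 1.87, 13.1 and 4.50 FPKM across *CARM1* KD 1 to 3, with a log2 fold change of 1.37 (standard error 1.37) that was 0.029 without *CARM1* KD 2 and 0.77 without control 2. *GALM*, which interconverts the anomers of aldose sugars, had 68.9, 0.0555 and 72.1 FPKM without injection, against 98.0, 112 and 20.3 FPKM after *CARM1* KD. *ADH5*, which oxidizes the glutathione adduct of formaldehyde, had 84.5, 24.7 and 27.8 FPKM without injection, against 59.9, 34.6 and 40.7 FPKM after *CARM1* KD. *GALM* was lowest in control 2 by far, whereas *ADH5* was nearly as low in control 3. The 26 members not tested reached at most 2.70 FPKM in any embryo by the deposited gene value. Of these, 4 (*PGK2*, *PGAM2*, *ENO4* and *G6PC2*) had a count of 0 throughout. The members not tested include the liver pyruvate kinase *PKLR* and the gluconeogenic enzymes *FBP1* and *PCK2*.

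The leading transcript was the same in the embryos compared for most members with several transcripts. Of 42 tested members with several annotated transcripts, 27 had the same leading transcript in every embryo with at least 50 counts of the gene. Some of these 27, among them *ENO1*, *FH* and *PGAM1*, had under 50 counts in control 2 and were not compared there. In control 2 the leading transcript of *GAPDH*, *IDH1* and *CS* differed from those of all other embryos, although for *CS* the other embryos did not share 1 either. For *GAPDH*, the 12-exon transcript ENSSSCT00000000756 held 61.6 to 83.0% of the counts in 5 embryos and 2.64% in control 2. The other 17 tested members have 1 transcript.

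Genes around the 2 pathways, from lists chosen for their function, gave no call either. Of the lactate and pyruvate carriers, 3 were tested (1 higher and 2 lower in *CARM1* KD embryos, 0 called). *MPC1*, a subunit of the mitochondrial pyruvate carrier, had 158, 10.6 and 278 FPKM across controls 1 to 3, against 117, 129 and 135 FPKM across *CARM1* KD 1 to 3. *SLC16A3*, a carrier that exports lactate and a gene named after its values were seen, was at most 0.0756 FPKM. *SLC16A1*, another carrier of this list and also named after its values were seen, had 18.2 to 56.4 FPKM. Of the pentose phosphate genes, 5 were tested and all 5 had higher fitted values in *CARM1* KD embryos, with 0 called. Control 2 was the lowest embryo for 3 of these 5, and their direction without control 2 is not given here. *RPIA*, ribose 5-phosphate isomerase, had 147, 147 and 95.9 FPKM without injection, against 141, 183 and 286 FPKM after *CARM1* KD, with a log2 fold change of 0.49 (standard error 0.64). The counts of higher and lower genes were 3 and 3 for regulators of pyruvate dehydrogenase, 4 and 2 for regulators of glycolysis, 4 and 4 for the malate-aspartate and glycerol phosphate shuttles, 4 and 1 for glutamine entry and 2 and 0 for glucose uptake. All tested genes of these 7 lists had an unadjusted p above 0.05 with edgeR, and the embryo groups overlapped for each. *SLC2A1* and *SLC2A3* were not analysed here.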

How the data were processed

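For 6 single-embryo libraries the authors deposited gene and transcript tables of FPKM (per length and library size) and of estimated counts, and 0 columns lacked a sample. Among the tools in the submitters' processing notes are HISAT2 and StringTie, and the build named there is GRCh38.p10, a human name, while 80 of 80 members found by symbol and chromosome overlapped the pig assembly Sscrofa11.1. The sources used here do not give which tool made the values. A placeholder FPKM stood in 65499 cells, 65497 of them with a count of 0, and was set to 0. Of 9 members named by identifier only, 6 received a symbol from an Ensembl table.

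Counts were rounded and fitted with edgeR 4.0.16 (R 4.3.3, TMM scaling, quasi-likelihood test, Benjamini-Hochberg adjustment). The fit covered the 10639 genes that reached 1 FPKM in 2 or more libraries by the deposited gene value. The common biological coefficient of variation was 1.12, with 4 residual degrees of freedom. The fit was tested on simulated data. Standard errors are the log2 fold change over the square root of F. Alternatives were DESeq2 1.42.0, limma 3.58.1 on log2(FPKM + 1) or log2(FPKM + 0.1), other filters and scalings, mitochondrial genes left out, the replicate block and each library left out. Leaving out both control 2 and *CARM1* KD 3, the *LDHB* row of chromosome 5 and summed transcript FPKM were added after the data were seen.

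Members and lists were chosen with earlier results of these data known. Named genes were the tested gene of highest mean FPKM at each step, every tested gene of the hexokinase, phosphofructokinase, pyruvate kinase and lactate dehydrogenase steps, and any with an unadjusted p under 0.05 or groups that did not overlap. From the lists around the pathways, up to 2 genes of highest mean FPKM could be named. Some members are not reported here.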

Additional observations from a re-analysis of the deposited data

How the results depend on the processing

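Under every alternative run, 0 members passed an adjusted p under 0.05, and the median log2 fold changes ranged from -0.36 (1 FPKM required in all 6 libraries) to 0.54 (without control 1) for glycolysis and from -0.16 (without control 2) to 0.93 (limma on log2(FPKM + 0.1)) for the citrate cycle. With no filter, *OGDHL*, named after its value was seen, had an unadjusted p of 0.0296 in edgeR, where 1.35% of all genes passed; it rests on 27 and 146 counts in controls 1 and 2. Across all genes, DESeq2 made 12 calls at an adjusted p where edgeR made 0, and unadjusted calls ranged from 16 (replicate block) to 243 (no filter), against 73. The *LDHA* to *LDHB* difference kept its sign under all alternatives, from -3.49 without control 1 to -0.70 without control 2, and from -3.16 to -0.21 for the chromosome 5 row. Among abundant genes, *ENO1*, with 4113 counts or more in 5 embryos and 0 in control 2, had a standard error of 2.001, against 0.72 for *CS*.

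The replicate numbers are not known to pair embryos: same-numbered embryos correlated at 0.24, -0.52 and -0.58 in their deviations from the group means, and not every embryo correlated best with its own number. With the replicate block the medians were 0.27 and 0.63, and 0 members passed. The block leaves the *LDHA* to *LDHB* difference at -2.28 by construction.

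Signs of single genes, none of them called, were unstable, and the cause was not tested. With limma on log2(FPKM + 1), the log2 difference changed sign for *ADH5* (0.17), *ADPGK* (0.25), *ALDOA* (0.45), *CS* (0.086), *DLD* (1.01), *GAPDH* (-0.29) and *PGK1* (0.30). With log2(FPKM + 0.1) it did so for the same genes, at 0.18, 0.36, 0.81, 0.086, 1.19, -0.36 and 0.40. With the replicate block it did so for *ADH5* (0.055), *ADPGK* (0.33), *ALDOA* (0.23), *DLD* (0.58), *GAPDH* (-0.52) and *PGK1* (0.16). Without both control 2 and *CARM1* KD 3 it did so for *ADPGK* (0.85), *HK2* (-0.36) and *TPI1* (0.27). With each library left out in turn, the log2 fold change ranged from -0.37 to 0.61 for *ADH5*, -1.005 to 1.27 for *ADPGK*, -0.89 to 0.90 for *ALDOA*, -0.59 to 0.25 for *CS*, -0.68 to 0.54 for *DLD*, -0.30 to 1.04 for *ENO1*, -0.029 to 1.05 for *FH*, -1.25 to 0.82 for *GAPDH*, -0.52 to 1.20 for *HK2* and -0.69 to 0.96 for *IDH1*. The ranges were -1.02 to 0.14 for *LDHA*, -0.70 to 2.30 for the coded *LDHB* row, -1.85 to 0.30 for *LDHC*, -0.036 to 0.76 for *MDH2*, -1.52 to 1.03 for *PGK1*, -0.068 to 1.21 for *PKM*, -0.18 to 0.72 for *SDHB* and -0.34 to 1.34 for *SUCLG1*. Without changing sign, the log2 fold change ranged from -1.99 to -0.16 for *HK1*, 0.37 to 2.36 for *PFKP*, 0.78 to 2.82 for *GPI*, 0.15 to 1.32 for *GALM*, 0.029 to 2.10 for *PC* and 0.53 to 1.65 for *PARP6*.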
